A study of Mus musculus with 2 samples.

Results

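First intron distal peaks are sites of open chromatin that lie in the first intron of a protein-coding gene but away from protein-coding promoters. In whole mouse embryos, DNase-seq gave 9623 such peaks among the 162667 peaks that both replicates shared, which is 5.92% of them. Each is a 150 bp replicate 1 peak on chromosomes 1 to 19 with 1 bp or more in common with a peak of replicate 2. Its midpoint lay in the first intron of the gene's principal transcript (tagged appris_principal_1 in GENCODE M21, the one with the longest genomic span if several were), more than 1 kb from every transcription start site (TSS) of a protein-coding gene and outside all exons. The same rules applied to all later introns gave 20555 peaks, which serve as the comparison. TSSs of other gene types were not excluded. Within 500 bp of one lay 1.36% of the first intron peaks and 1.06% of the later intron peaks.

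The first intron begins where the first exon ends, so it is the intron that lies closest to the promoter of its transcript. First introns are on the whole the longest introns of mammalian genes, and many enhancers, the short regulatory sequences that transcription factors bind to raise transcription, have been mapped in them. DNase-seq finds such sequences because the enzyme DNase I cuts DNA where factors have displaced nucleosomes.

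Both libraries came from embryos of the B6NCrl strain at 11 days, labelled healthy, with males and females pooled. No treatment or genetic change is given, and the 2 biological replicates form the only group. They have a separate biosample entry each and share a donor entry, and the number of embryos in each pool is not stated. A whole embryo mixes all its tissues, so a peak does not say in which cells the site was open. Promoter peaks were present in both replicates at 8 of 8 tissue genes checked. These were Sox2 and Tubb3 (neural), Myog (muscle), Nkx2-5 (heart), Afp (endoderm and yolk sac), Kdr (endothelium), Klf1 (red cells) and Prrx1 (limb mesenchyme). Promoter peaks were common in general. Among genes with 1 to 5 kb of first intron that met the rules above, 2508 of 3749 had one in both replicates. With 5 to 20 kb it was 2334 of 2911, so 8 of 8 says little about single tissues.

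The replicate 1 list held 204697 peaks and the replicate 2 list 231103, so most counts below are higher in replicate 2. Read counts are not given, the depth is unknown, and whether depth, the library or the embryos made the second list longer cannot be told apart. With 2 libraries, an exact two-sided permutation test cannot give a p below 0.5, so no p-value is printed. A difference is called larger than the replicate spread only by setting it beside the values of each replicate.

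The sequences that follow show what the best-ranked members look like, that is, those with the highest mean percentile of the peak score within each replicate's own list. The deposited score is a whole number from 1 to 150 and how it was built is not stated, so scores are ranked and never divided. Lines give the host gene, the mm10 coordinates and the plus strand of the GRCm38 reference, 5′ to 3′. Capitals mark every match, on either strand, to one of 20 short motifs spelled out further on. Overlapping matches run together.
Creb3l1 chr2:92008396-92008545: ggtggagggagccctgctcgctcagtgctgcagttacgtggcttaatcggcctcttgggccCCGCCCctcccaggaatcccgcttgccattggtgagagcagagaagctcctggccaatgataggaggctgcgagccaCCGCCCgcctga
Zfp503 chr14:21988396-21988545: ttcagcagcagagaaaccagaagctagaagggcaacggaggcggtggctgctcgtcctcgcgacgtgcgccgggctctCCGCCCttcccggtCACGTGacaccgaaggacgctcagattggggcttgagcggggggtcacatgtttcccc
4931414P19Rik chr14:54603396-54603545: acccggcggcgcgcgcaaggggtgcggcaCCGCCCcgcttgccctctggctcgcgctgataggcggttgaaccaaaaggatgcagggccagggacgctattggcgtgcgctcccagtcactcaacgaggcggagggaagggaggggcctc
Mnt chr11:74832196-74832345: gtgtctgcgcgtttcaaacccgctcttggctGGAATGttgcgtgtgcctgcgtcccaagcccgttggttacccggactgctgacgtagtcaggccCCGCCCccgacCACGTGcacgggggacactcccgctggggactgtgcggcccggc
Fat1 chr8:44938036-44938185: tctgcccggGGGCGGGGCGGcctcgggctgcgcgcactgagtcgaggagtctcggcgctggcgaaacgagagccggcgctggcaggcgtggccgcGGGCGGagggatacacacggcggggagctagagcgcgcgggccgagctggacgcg
The Creb3l1 member had the highest rank of all 9623, with scores of 146 in replicate 1 and 145 in replicate 2. It lay 16031 bp from its host's TSS, and its GC content was 64.7%. Creb3l1 encodes a membrane-bound transcription factor of the secretory pathway. All 5 sequences hold the GC box GGGCGG or its reverse complement, the core recognised by Sp and Klf factors, and those of Zfp503 (a zinc finger gene) and Mnt (a repressor that pairs with Max) also hold CACGTG. The Mnt member scored 143 and 141. The member in Fat1, an atypical cadherin gene, scored 140 and 143, and 77.3% of its bases were G or C.

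A second set shows members that later results refer to: the best-ranked member with a match to the core of the Ctcf motif, and the best-ranked member of 3 long, peak-dense first introns and of Gata2. The last 4 were chosen after their values were seen.
Gm20388 chr8:120276556-120276705: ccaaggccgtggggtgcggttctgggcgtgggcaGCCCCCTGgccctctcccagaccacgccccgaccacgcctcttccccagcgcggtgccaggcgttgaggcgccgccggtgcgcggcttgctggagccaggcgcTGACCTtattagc
Pknox2 chr9:37093176-37093325: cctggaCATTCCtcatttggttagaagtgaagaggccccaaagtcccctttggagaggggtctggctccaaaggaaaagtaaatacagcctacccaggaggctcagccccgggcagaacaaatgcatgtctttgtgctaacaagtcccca
Bach2 chr4:32303796-32303945: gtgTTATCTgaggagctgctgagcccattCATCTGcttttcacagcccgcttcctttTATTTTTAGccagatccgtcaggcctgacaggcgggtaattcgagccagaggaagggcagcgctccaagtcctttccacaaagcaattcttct
Gli2 chr1:119048096-119048245: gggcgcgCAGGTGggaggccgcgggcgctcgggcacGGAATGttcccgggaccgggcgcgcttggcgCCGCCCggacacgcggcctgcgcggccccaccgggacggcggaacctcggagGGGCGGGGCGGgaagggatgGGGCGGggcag
Gata2 chr6:88196956-88197105: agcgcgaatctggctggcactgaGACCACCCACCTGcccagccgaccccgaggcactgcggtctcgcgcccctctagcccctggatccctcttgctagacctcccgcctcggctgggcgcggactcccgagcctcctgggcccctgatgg
The Gm20388 line carries GCCCCCTG, the reverse complement of the Ctcf core CAGGGGGC, and scored 131 in replicate 1 and 137 in replicate 2. The Bach2 line holds an AGATAA core of Gata factors, an E-box and a Mef2 core, and it scored 129 and 125. The Gli2 line is 82.0% GC, against 52.0% for the Pknox2 line and 51.3% for the Bach2 line. In Gata2, a master regulator of blood stem cells and endothelium, the best-ranked member scored 55 and 65, well below the others shown.

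First introns held more distal peaks per length than later introns in both replicates. Eligible sequence, meaning intron bases that met the same distance and exon rules, came to 133.561 Mb in first and 377.893 Mb in later introns. In replicate 1 the density was 9.28 peaks per 100 kb in first introns and 6.95 in later ones, and in replicate 2 it was 10.8 and 7.97. Shared peaks had 7.20 and 5.44 per 100 kb. The ratio of first over later introns was 1.33 in replicate 1, 1.35 in replicate 2 and 1.32 for shared peaks, so the ratio was close in the replicates. The densities themselves were higher in replicate 2 in both intron classes. Within each class they differed between replicates by less than the classes did within either replicate. Density fell with intron number within each list: shared peaks had 7.20 per 100 kb in intron 1, 5.92 in intron 2, 5.60 in intron 3, 5.48 in intron 4 and 5.19 in intron 5 or later.

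**Figure D1:**
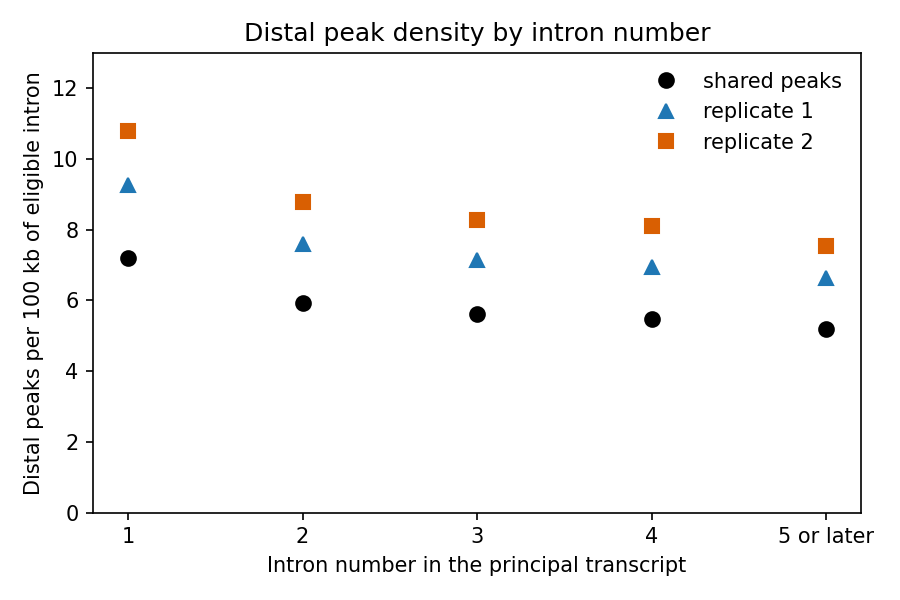
Distal peaks per 100 kb of eligible intron (y axis) by intron number in the principal transcript (x axis), for shared peaks, replicate 1 and replicate 2, 1 point each. Intron 1 is highest in all 3 sets, at 7.20, 9.28 and 10.8 peaks per 100 kb.

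A single gene model held many of the members. Gm20388 is a predicted gene on chromosome 8 whose first intron runs from 119910940 to 124295357 (mm10), over 4384 kb, and spans the TSSs of 73 other protein-coding genes. It hosted 543 members, 5.64% of the set, with 677 distal peaks in replicate 1 and 781 in replicate 2. None of the 543 had the Gm20388 TSS as its nearest. The nearest gene inside the intron was Gse1 for 105 of them, Foxl1 for 47, 1700018B08Rik for 40, Zfpm1 for 34 and Irf8 for 29. Without this gene 9124 members remained, with 7.01 shared peaks per 100 kb against 5.44 in later introns. The ratio was then 1.29, with 1.30 in replicate 1 and 1.32 in replicate 2.

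The excess was concentrated near promoters. At 1 to 2 kb from the nearest protein-coding TSS, first introns had 20.3 peaks per 100 kb in replicate 1 and 24.6 in replicate 2, and later introns had 8.37 and 9.996. The ratio for shared peaks was 2.31 in this class, 1.35 at 2 to 5 kb, and between 1.03 and 1.15 in each of the 5 classes beyond 5 kb. Over all bases beyond 5 kb, shared peaks had 5.95 per 100 kb in first introns and 5.30 in later introns, a ratio of 1.12 (1.12 in replicate 1 and 1.13 in replicate 2). Without Gm20388 that ratio was 1.07, with 1.07 and 1.08 in the replicates. Beyond 100 kb it was then 0.819, with 0.828 and 0.817 in the replicates, so first introns were the sparser class there. Members within 5 kb of a TSS made up 40.1% of the set on 27.5% of its bases, while later intron peaks had 18.9% on 16.8%.

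Sequence outside protein-coding genes showed a similar fall with distance from the TSS. Intergenic shared peaks had 11.5 per 100 kb at 1 to 2 kb, between the 15.7 of first introns and the 6.77 of later introns. The order was the same in replicate 1 (14.5 between 20.3 and 8.37) and in replicate 2 (17.2 between 24.6 and 9.996). Farther out the order varied with the class. At 5 to 10 kb intergenic sequence was the densest in each peak set. It had 8.02 against 7.49 in first introns in replicate 1, and 9.42 against 8.82 in replicate 2. At 20 to 50 kb the shared densities were 6.33 in first introns, 6.20 in intergenic sequence and 5.89 in later introns. Without Gm20388 first introns had 6.12 there, below intergenic sequence, but stayed above it in each replicate. Beyond 100 kb intergenic sequence was the sparsest, with 3.20 shared peaks against 4.16 in first and 4.04 in later introns. Without Gm20388 first introns had 3.31 at that distance, close to intergenic sequence. The replicates then had 4.42 in first introns against 4.25 in intergenic sequence (replicate 1), and 5.06 against 4.87 (replicate 2). The intergenic class was added after the intron values had been seen.

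**Figure D2:**
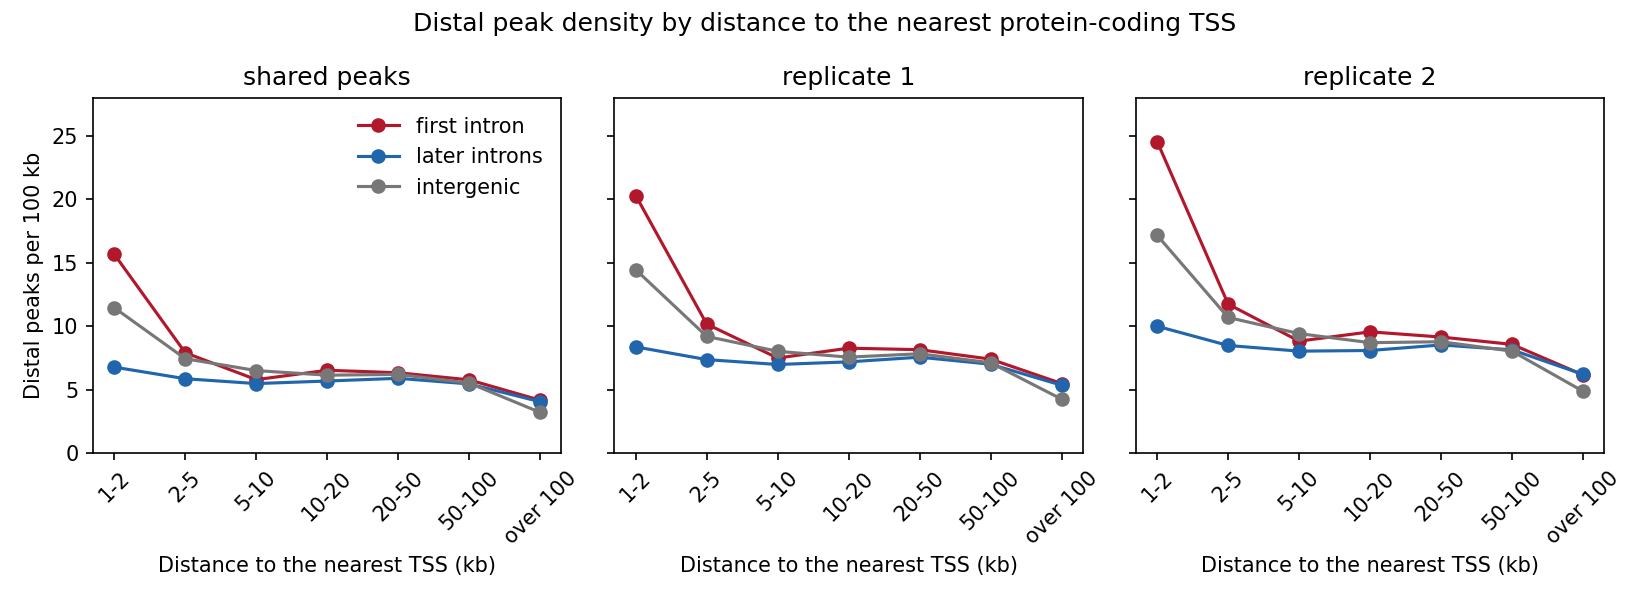
Distal peaks per 100 kb (y axis) by distance class to the nearest protein-coding TSS in kb (x axis), for shared peaks, replicate 1 and replicate 2 (panels), in first introns, later introns and intergenic sequence. At 1 to 2 kb first introns lie above both other classes in each panel, and from 5 to 100 kb the 3 lines run close together.

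The 1 kb limit of the rule cut through a continuous slope. In first introns, outside exons, shared peaks had 26.6 per 100 kb at 900 to 1000 bp from a TSS, just outside the rule, and 22.3 at 1000 to 1100 bp, just inside it. Median scores on both sides were alike, at 48 and 50 in replicate 1 and at 60 in both zones in replicate 2.

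Members were more frequent at the start of the intron. The 5′ part of a first intron adjoins the first exon, and that of a later intron does not. Parts were not split by distance to the TSS, so this pattern and the excess near promoters cannot be told apart. Introns of at least 10 kb were cut into 5 equal parts from the 5′ to the 3′ end. The 5′ part of first introns had 13.1 peaks per 100 kb in replicate 1 and 15.5 in replicate 2, while the other 4 parts had 7.56 to 8.26 and 8.74 to 9.38. Later introns showed no such step: their 5′ part had 6.99 and 8.03, and the other parts 7.10 to 7.38 and 8.14 to 8.58. For shared peaks the 5′ part of first introns had 10.1 per 100 kb, and 9.67 without Gm20388, against 5.36 in the 5′ part of later introns.

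**Figure D3:**
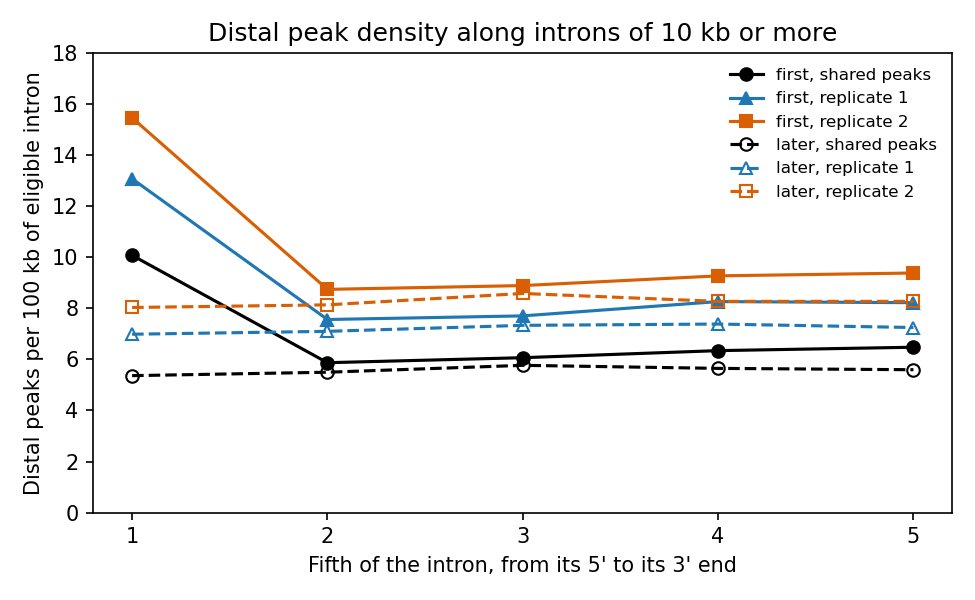
Distal peaks per 100 kb of eligible intron (y axis) in each of 5 equal parts of introns of 10 kb or more, from the 5′ to the 3′ end (x axis), for first introns (filled, solid) and later introns (open, dashed) in each peak set. The 5′ part of first introns, at 10.1 shared peaks per 100 kb, stands above every other part in each peak set.

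Among genes that have long introns of both kinds, the first intron was denser about as often as the later ones by shared peaks. Each replicate alone leaned to the first intron. Of 1097 genes with at least 20 kb of eligible sequence in the first intron and in the later ones, 542 (49.4%) had the denser first intron by shared peaks, 513 had denser later introns and 42 were equal. The shares with a denser first intron were 52.3% in replicate 1 and 53.5% in replicate 2, against 45.8% and 44.9% with denser later introns. Median densities were 5.28 in both classes for shared peaks, 7.40 and 6.94 in replicate 1, and 8.56 and 7.98 in replicate 2. Summed over the same genes, the shared density was 6.83 per 100 kb in first and 5.33 in later introns (replicate 1, 8.72 and 6.90; replicate 2, 10.1 and 7.91). Without Gm20388 it was 6.42 and 5.33.

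Members were slightly stronger and richer in G and C than later intron peaks. Their median score was 48 in replicate 1 and 57 in replicate 2, against 46 and 54 for later intron peaks. Without Gm20388 the member medians were 47 and 57. Scores fell with distance from the TSS in both classes. At 1 to 2 kb the medians were 49 in replicate 1 and 61 in replicate 2 for first introns. Later ones had 51 and 61. At 5 to 10 kb both intron classes had 48 and 57, with 48 and 56 for members without Gm20388. At 20 to 50 kb first introns had 47 and 56 (46 and 55 without Gm20388), and later ones had 45 and 54. The part of distance in the score difference was not tested. Beyond 100 kb the medians were 44 and 52 for first introns and 42 and 50 for later ones. Beyond 100 kb the order rested on Gm20388: without it the member medians were 39 and 45. Mean GC content was 52.8% ± 6.57 (SD over 9623 members) against 51.3% ± 6.15 (SD over 20555 peaks), and 52.6% without Gm20388. CpG-rich peaks, with a GC content over 50% and an observed over expected CpG ratio over 0.6, made up 7.15% of members and 3.42% of later intron peaks. That share was 14.2% of members at 1 to 2 kb from a TSS and 4.95% beyond 100 kb. Without Gm20388 it was 2.30% beyond 100 kb, where later intron peaks had 2.65%.

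Other properties of the members were close to those of later intron peaks. Repeats covered on average 10.3% of a member and 10.6% of a later intron peak. Almost all members, 99.8%, lay in a hotspot (a broader enriched region in the deposited lists) in both replicates, and 31.1% lay in hotspots at the ceiling of the hotspot −log10 q value in both, against 32.4% of later intron peaks. Of all first intron distal peaks in replicate 1, 77.7% overlapped a replicate 2 peak, against 78.2% for later introns. In replicate 2 the shares were 66.6% and 68.2%. Members lay closer together: 36.7% had another member within 1 kb, and 30.2% of later intron peaks had another of their own class that near. First introns also had the higher peak density, and its part in this difference was not tested. The nearest protein-coding TSS belonged to the host for 90.4% of members, for 95.3% without Gm20388, and for 84.7% of later intron peaks.

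Most first introns that could hold a member held none. Of 20807 protein-coding genes on the 19 autosomes, 8310 had at least 1 kb of eligible first intron in a principal transcript, and 3188 of them (38.4%) held a member. Counting each replicate alone, the shares were 43.0% and 46.1%. All told 3312 genes were hosts, 124 of them with less than 1 kb eligible, and 1525 hosts had a single member. The 133 hosts with 10 or more held 25.02% of the set. Without Gm20388, 132 such hosts held 20.4%.

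Genes with an open promoter held members more often at each length of first intron. A promoter peak here is a peak within 500 bp of a TSS of the gene in both replicates. With 1 to 5 kb of eligible first intron, 21.6% of 2508 genes with a promoter peak and 6.85% of 1241 genes without one held a member. With 5 to 20 kb the shares were 46.2% of 2334 and 24.3% of 577, and with 20 to 50 kb they were 78.5% of 970 and 47.1% of 104. The order was the same when replicates were counted alone: at 5 to 20 kb, 53.4% and 28.6% in replicate 1, and 56.4% and 31.5% in replicate 2.

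The genes with the most members after Gm20388 included regulators of signalling. Maml3, which encodes a coactivator of Notch, had 31 members in 222.7 kb of eligible first intron (35 peaks in replicate 1 and 45 in replicate 2). Its relative Maml2 had 23 (29 and 25). Zfhx3, a zinc finger homeobox gene, and Arhgap26, which encodes a GTPase activating protein, had 29 each. Their replicate counts were 36 and 39 for Zfhx3, and 39 and 32 for Arhgap26. Nxn, which encodes a thioredoxin-family protein that acts on Wnt signalling, had 27 (30 and 42), and Ror1, a Wnt receptor gene, had 22 (26 and 33). The rest of the leading 12 were Tshz2 with 26, Prkce with 25, Ext1 with 24, Jazf1 with 22 and Clybl with 21. These counts follow intron length in part, since each of these first introns had more than 100 kb of eligible sequence.

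Per length, the order of genes changed. Among first introns with at least 50 kb of eligible sequence, Pknox2, which encodes a homeodomain protein of the TALE class, was densest with 29.4 members per 100 kb (33.1 in replicate 1 and 45.9 in replicate 2). Bach2, a leucine zipper repressor gene best known from lymphocytes, had 26.8 (29.5 and 32.2). Gli2, which encodes an effector of Hedgehog signalling, had 25.9 (31.9 and 35.9), while its later introns had 13.8. Ski, a corepressor gene of the TGF-beta pathway, had 23.9 (27.3 and 34.1). The next were Nxn at 22.7, the Ets factor gene Fli1 at 22.2, the Rac exchange factor gene Prex1 at 22.2, the sulfotransferase gene Chst8 at 22.1, Creb3l2 at 21.3 and Cd247 at 20.7. Cd247 encodes a chain of the T cell receptor complex. It had 13 members and no promoter peak shared by both replicates, whereas the other 9 had one.

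**Figure D4:**
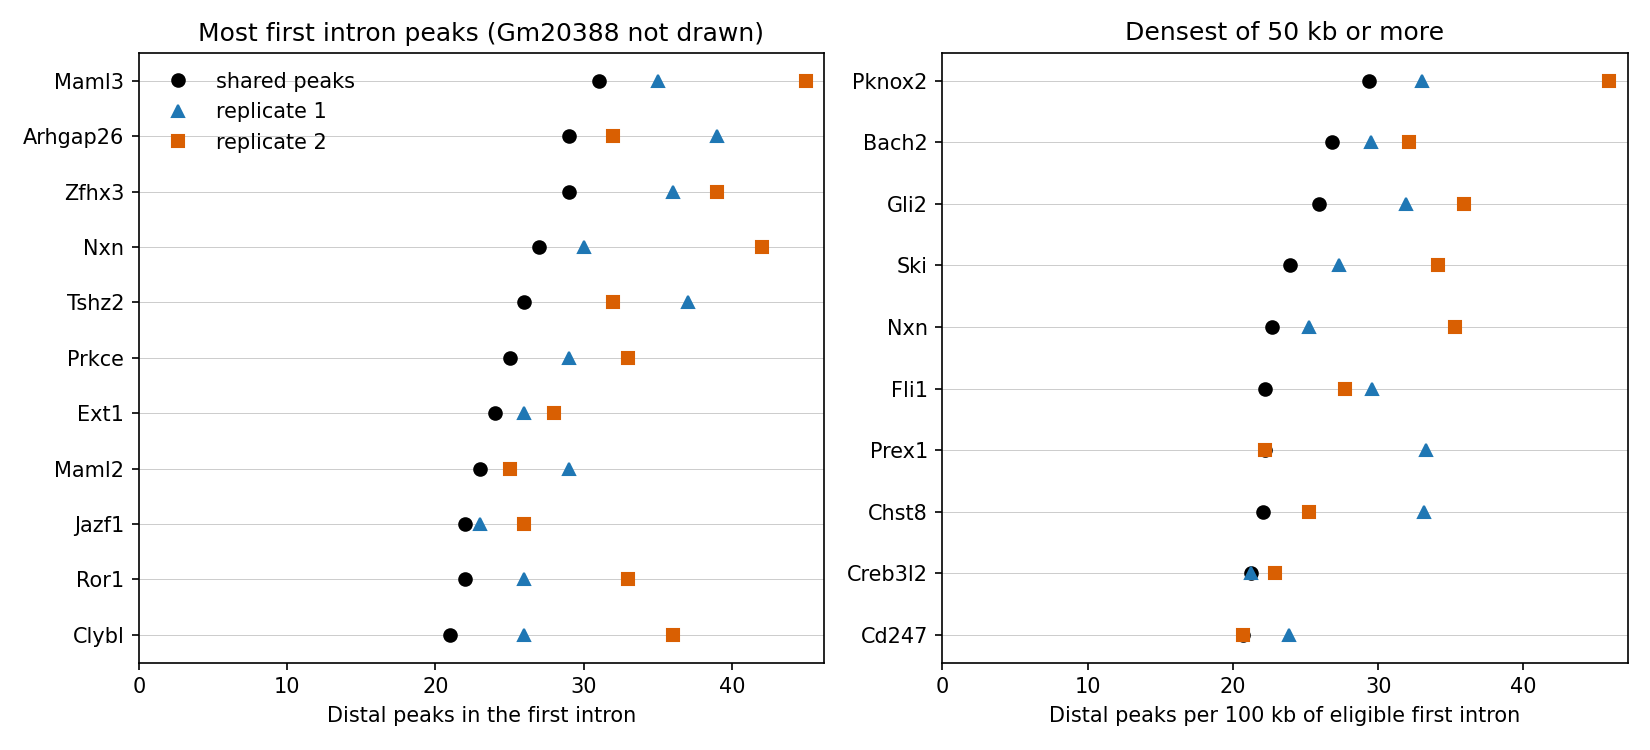
Left, distal peaks in the first intron (x axis) of the 11 hosts with the most members after Gm20388; right, distal peaks per 100 kb of eligible first intron (x axis) of the 10 densest hosts with at least 50 kb, for shared peaks, replicate 1 and replicate 2. Maml3 leads by count with 31 members and Pknox2 by density with 29.4 per 100 kb, and replicate 2 exceeds replicate 1 in most but not all hosts.

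Some long first introns were empty. The longest without a member were those of Pcdha3, Pcdha4 and Pcdha5 on chromosome 18, with 159.8, 156.7 and 152.8 kb of eligible sequence, Lipo3 with 155.5 kb and Obox1 with 150.5 kb. The Pcdha genes, clustered protocadherins that give neurons their surface identity, end their first introns at the same base, so their eligible sequence is largely shared. Each of the 3 had no distal peak in replicate 1 and 1 in replicate 2. Lipo3 had 1 in each replicate, which did not overlap, and Obox1, an oocyte homeobox gene, had none in either.

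The best-ranked members lay in genes of varied function, often near the promoter. After the 5 printed above came members in Gm20388 (scores 141 and 142), Irs1 (140 and 139), Ski (139 and 137), Marcks (133 and 140) and Mllt10 (134 and 139). Irs1 encodes an adaptor of the insulin receptor, and its member lay 7985 bp from the host's TSS, while that of Marcks, a protein kinase C substrate, lay 1669 bp away. The replicates went apart at Mllt10, which encodes a partner of a histone methyltransferase: its first intron had 1 distal peak in replicate 1 and 11 in replicate 2. The hotspot around its member was 1408 bp wide in replicate 1 and 7958 bp in replicate 2. This member lay 298 bp from a TSS of another gene type.

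Members were absent from 7 genes long known for first intron enhancers, namely Col2a1, Kdr, Tek, Nfatc1, Acta2, Col1a1 and Tnnc1. Col2a1, Tek and Nfatc1 had no transcript with the required tag and were not scored. In Kdr, the VEGF receptor gene, 2.96 kb was eligible, with no distal peak in replicate 1 and 2 in replicate 2. Acta2, the smooth muscle actin gene, had 0.653 kb eligible, with 0 and 1. Tnnc1 had none in either replicate, and no base of the short Col1a1 first intron was eligible.

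Other gene lists are described by the number of genes, among those with at least 1 kb of eligible first intron, that held a member, to be read beside the 38.4% of all such genes. Lists differ in intron length, so medians over genes with at least 20 kb are also given. For all 1650 genes of that size 1343 held a member, and the median was 5.26 members per 100 kb (7.42 in replicate 1 and 8.64 in replicate 2).

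Of 24 neural transcription factor genes in that list only 4 could be scored. All 4 held members, and the median over the 3 of at least 20 kb was 15.7 per 100 kb (19.7 and 17.7 in the replicates). Rfx4, a regulator of the dorsal brain midline, had 8 in 20.951 kb (9 and 8 in the replicates), and Sox5 had 8 in 50.857 kb (10 and 9). Rfx3, which encodes a factor of ciliated cells, had 6 in 105.236 kb (9 and 8), or 5.70 per 100 kb, near the median of all genes. Of 8 mesoderm and limb transcription factor genes, 7 held members, with a median of 7.57 over 4 (16.8 and 11.1 in the replicates). In Gli3, which encodes the Hedgehog effector that patterns the limb, 13.019 kb held 5 (7 and 8). Prrx1, a limb mesenchyme gene, had 2 in 42.651 kb (8 and 4). Osr1 had none, with 0 peaks in replicate 1 and 4 in replicate 2.

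Of 10 blood and endothelial genes scored, 5 held a member. All 4 with at least 20 kb were among them and had a median of 23.3 members per 100 kb (27.01 and 32.2 in the replicates). Flt1, a VEGF receptor gene, had 6 members in 24.57 kb (6 and 9), and the Ets factor gene Ets1 had 6 in 30.613 kb (7 and 6). Gata2 had 4 in 2.624 kb (4 and 5). Cdh5, the cadherin of endothelial junctions, had no distal peak in either replicate in 8.182 kb. First introns of 5 to 20 kb held a member in 41.8% of all genes.

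Synapse and ion channel genes lay at the other end. All 7 held members, but their first introns are very long, and the median was 2.15 per 100 kb (2.30 and 2.53 in the replicates). Lrp1b, which encodes a giant lipoprotein receptor family member, had 7 in 326.031 kb (7 and 7), and Csmd1 had 5 in 316.628 kb (6 and 8). Nrxn3, a presynaptic adhesion gene, had 5 in 36.113 kb (8 and 5).

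Receptor, guidance and matrix genes lay between these. Of 15 signalling receptor genes 13 held a member, with a median of 7.86 per 100 kb over the 12 of at least 20 kb. Bmpr1b, a BMP receptor gene expressed in cartilage condensations, had 19 (23 and 21), and Lrp6, a Wnt coreceptor gene, had none (1 and 1). All 10 axon guidance and adhesion genes held members, with a median of 8.77 over 8. Robo1, a Slit receptor gene, had 12 in 77.921 kb (12 and 16), while Robo2 had 1 in 57.034 kb (4 and 3). All 11 matrix genes held members, with a median of 8.06 over 7. Col4a1, a basement membrane collagen gene, had 4 (5 and 5), and Col5a1 had 4 (4 and 7).

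Among the remaining lists, 3 of 4 heart and muscle genes held members, and Hand2, a heart and limb factor gene with 1.3 kb eligible, had 2 (3 and 1). Of 9 chromatin regulator genes 7 held members, with a median of 8.58 over 6. Kdm6b, a histone H3 lysine demethylase gene, had 5 in 3.893 kb (7 and 6), while Ep300 and Chd8 had none in either replicate. Of 10 adult organ and immune genes, 4 held a member, near the share of all genes, with a median of 4.86 over 4. Abca4, a retinal transporter gene, had 3 in 5.33 kb (4 and 3). Cps1, a liver urea cycle gene, had none in either replicate.

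The members were also searched for 20 short motifs on both strands. The E-box of helix-loop-helix factors was searched as CANCTG, and its Myc type as CACGTG. The core of Sp and Klf factors was GGGCGG, that of Ets factors was CCGGAAG, and that of Ctcf was CAGGGGGC. Nrf1 was searched as CGCATGCG and the Gli factors of Hedgehog signalling as TGGGTGGTC. For the Tead family the letters were GGAATG, for the AP-1 complex they were TGANTCA, and for nuclear receptors they were AGGTCA. The search for Gata factors used AGATAA and that for muscle factors of the Mef2 family CTANNNNTA. The homeodomain core was TAATTA, and that of Hox proteins paired with Pbx was TGATTNAT. Sox proteins were given the letters ACAATG, and the Nfi family had the letters TTGGCA. For the Wnt effectors Tcf and Lef the letters were TTTGATC, for forkhead (Fox) proteins they were TGTTTAC, for the Runx family they were TGTGGTT, and the octamer was ATGCAAAT. Some overlap in letters, so 1 stretch can count for several. A match describes the letters of a peak and is not a bound site. The background was 841982 windows of 150 bp in eligible first intron sequence free of peaks, whose mean GC content was 42.8%, well below that of members.

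Some GC-rich motifs were more frequent in members than in later intron peaks, in both replicates. GGGCGG was in 10.02% of members, 6.71% of later intron peaks and 1.43% of windows. In the replicate lists it was in 9.04% of first and 6.34% of later intron peaks in replicate 1, and in 8.57% and 6.10% in replicate 2. CCGGAAG was in 1.70% of members, 1.07% of later intron peaks and 0.399% of windows (replicate 1, 1.53% and 1.03%; replicate 2, 1.60% and 1.08%). CACGTG followed the same order, at 4.02%, 3.27% and 1.64%.

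Both distance and GC content moved with the GGGCGG share. Among peaks 1 to 5 kb from a TSS it was in 12.1% of members and 9.47% of later intron peaks, and beyond 20 kb in 7.88% and 5.56%. Among peaks with a GC content over 60% the shares were 30.8% and 29.6%, and at 55 to 60% they were 13.9% and 11.4%. At a GC content up to 50% they were 3.37% and 1.98%. CCGGAAG was also more frequent in members in each of these classes, for example 1.88% against 0.989% at 5 to 20 kb.

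The Ctcf core was in 2.54% of members, 2.79% of later intron peaks and 0.318% of windows. Ctcf is the factor that anchors chromatin loops. Its replicate shares were 2.28% of first and 2.39% of later intron peaks in replicate 1, and 2.00% and 2.24% in replicate 2. Within either replicate the intron classes thus differed by less than first intron peaks did between replicates. By distance the shared peaks differed more: the core was in 2.82% of members and 3.76% of later intron peaks at 1 to 5 kb from a TSS, in 2.38% and 3.50% at 5 to 20 kb, and in 2.30% and 1.98% beyond 20 kb. The replicate lists were not split by distance for this share. E-boxes, bound by factors such as those of muscle and neural differentiation, were in 45.9% of members, 46.7% of later intron peaks and 30.1% of windows. Split by distance, again in shared peaks only, they were in 42.1% of members and 46.6% of later intron peaks at 1 to 5 kb. The shares were 48.8% and 46.0% at 5 to 20 kb, and 48.0% and 47.2% beyond 20 kb. Several motifs rich in A and T were less frequent in peaks than in windows, though not all. TGATTNAT was in 3.09% of members and 2.54% of windows. AGATAA was in 4.99% of members and 9.47% of windows, CTANNNNTA in 9.18% and 19.3%, and TAATTA in 3.03% and 5.07%. Windows were not matched to peaks for GC content, and the part of base composition in these differences was not tested.

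**Figure D5:**
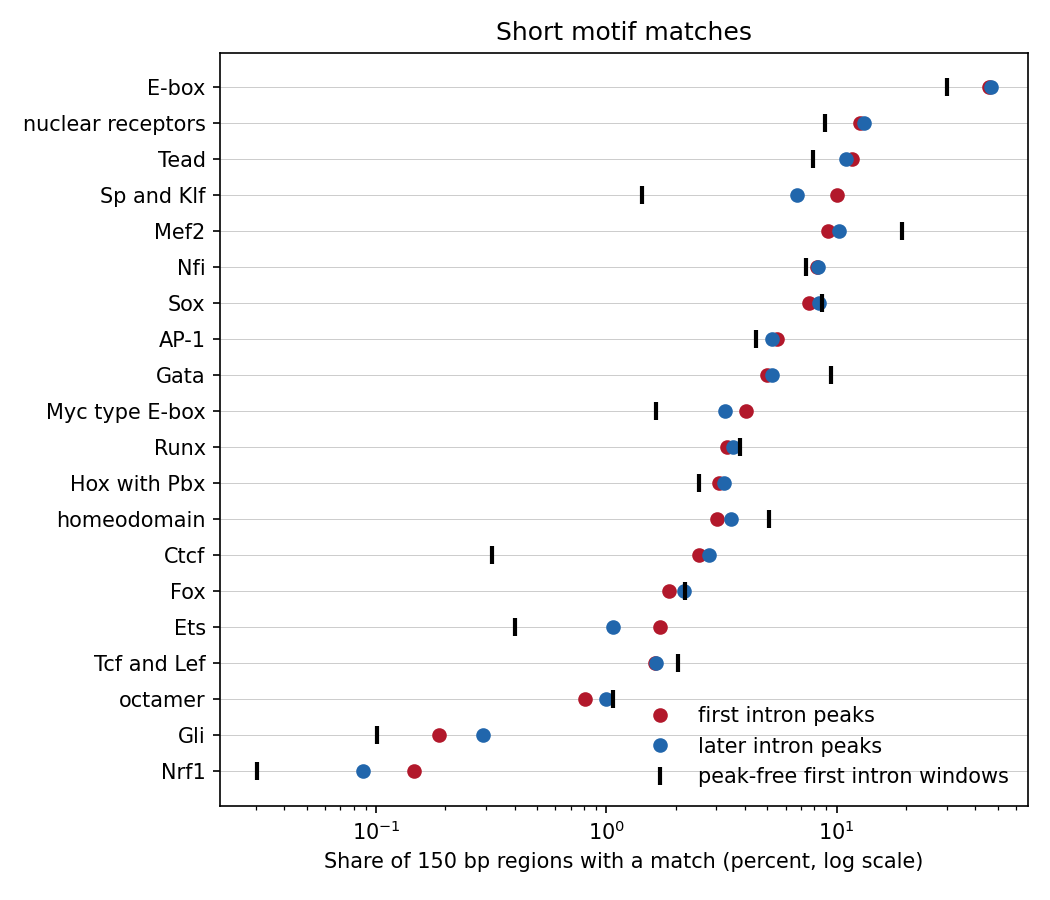
Share of 150 bp regions with at least 1 match on either strand (x axis, percent, log scale) for 20 short motifs (y axis), in first intron peaks, later intron peaks and peak-free first intron windows. Sp and Klf shows the widest gap between first and later intron peaks in percentage points, 10.02% against 6.71%.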

How the data were processed

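DNase-seq peak and hotspot lists of 2 replicates were used. Per the file headers and accompanying text, the authors derived every list from filtered mm10 alignments of a single replicate, without pooling. No aligner or caller is named in the sources used here. The deposited peak score is a whole number from 1 to 150. The deposited hotspot value is a −log10 q value that stops at 100. No read totals come with the lists, and the depth is unknown.

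GRCm38.p6 sequence and GENCODE M21 annotation matched the build of the files. Introns came from the tagged principal transcript, and the lowest intron number was used where introns overlapped. Densities divide peak midpoints by eligible bases (not N). Python 3.11.15 was used. The assignment of peaks was tested on simulated data. Members, gene lists and motifs were chosen with earlier results of these data known. Named genes were the 12 with most members, the 10 densest with 50 kb or more, hosts of the 10 best-ranked members, the 5 longest without a member and, of each list, the first 4 with and first 2 without a member. The text names some of these only, and some items are not reported here. Alternatives changed the overlap, score, distance, transcript, TSS and host rules.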

Additional observations from a re-analysis of the deposited data

How the results depend on the processing

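First introns stayed denser than later ones under each alternative run, but the size of the excess depended on the distance rule. Against a ratio of 1.32, single replicates gave 1.33 to 1.35. An overlap of at least 75 bp gave 1.31, the better-scoring 50% of each list 1.44, a minimum distance of 2.5 kb 1.15, lower APPRIS principals 1.27, TSSs of protein-coding transcripts only 1.34, and leaving out the 20 leading hosts of each class 1.29. After standardising for distance to the TSS the ratio was 1.27, with 1.29 to 1.30 in single replicates. The alternatives then gave 1.25 (75 bp), 1.33 (better-scoring), 1.11 (2.5 kb), 1.28 (principal by exonic length), 1.23 (lower principals) and 1.23 (without leading hosts). The count of 9623 fell to 5093 with the better-scoring 50%, since fewer peaks entered, and single lists held 12390 to 14407. The median score difference of 2 became 0 (better-scoring), 3 (2.5 kb) and 1 (without leading hosts). The GC difference of 1.55 percentage points was 1.21 to 1.36 in single replicates, 2.05 (better-scoring), 1.43 (2.5 kb), 1.39 (lower principals) and 1.32 (without leading hosts). The share of genes with a member, 38.4%, was 43.0% to 46.1% in single replicates and 24.9% with the better-scoring 50%.

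Chosen after seeing the data, leaving out Gm20388 gave a density ratio of 1.29, a standardised ratio of 1.23, a score difference of 1 and a GC difference of 1.31. Leaving out introns that hold another gene's TSS (522 of 15147 first introns) gave 1.31, 1.26, 1 and 1.33. Each alternative recomputed the same values under another rule. Beyond the smaller number of peaks that entered in some, why a value moved was not tested. No paired test over libraries was run, because with 2 of them an exact two-sided test cannot give a p below 0.5. Depth is unknown, so an empty intron is one with no called peak.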
